A study of Mus musculus with 30 samples.

Results

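The genes described here are 59 genes of DNA replication and mitosis, chosen by name from the known machinery of chromosome duplication and division. Of these, 34 act in replication (origin licensing and helicase, fork enzymes, nucleotide supply, and E2F factors with the E cyclins) and 25 act in mitosis (cyclins and kinases, the spindle checkpoint, and spindle or chromosome proteins). Each was found by its name or a synonym in the probe annotation of the arrays, and the brightest probe by mean log2 signal stood for the gene. All 59 had a probe, and 58 were among the 12621 genes that could be tested; Pola1, the catalytic subunit of DNA polymerase alpha, was left out because the only probe for it was marked as an outlier spot on 1 array.

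The study arrested mouse B cell development by deleting genes and profiled RNA on two-colour arrays and chromatin by ChIP-seq. The arrays held 2 samples each of pre-pro-B cells lacking E2A (E2A-/-), pre-pro-B cells lacking EBF (EBF-/-) and pro-B cells lacking RAG1 (RAG1-/-), all of strain C57BL/6. The ChIP-seq regions described below came from EBF-/- and RAG1-/- cells and a mock immunoprecipitation. E2A regions were also read in E2A-/- cells that carried E47-ER, after 1 h or 6 h of tamoxifen. Both kinds of pre-pro-B cell were kept on a layer of S17 stroma in medium with IL-7, SCF and FLT3 ligand. The pro-B cells were B220+ cells taken by magnetic separation from the femur marrow of Rag1 knockout mice and then grown for 10 d in IL-7 plus SCF, with no stroma stated. In every comparison with RAG1-/- cells, the genotype and the culture thus cannot be told apart. No label says that the 2 samples of a group came from separate animals or cultures, so the p-values measure only the spread between these samples, which may be technical. In bulk samples, fewer cells in cycle and less RNA per cycling cell cannot be told apart.

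Cells copy their DNA only from origins loaded with the Mcm2 to Mcm7 helicase, a step called licensing that needs the ORC proteins, Cdc6 and Cdt1. Activator E2F factors are known to drive transcription of the licensing, fork and nucleotide genes at the start of replication. The mitotic genes come on later in the cycle, when cyclin A and cyclin B activate Cdk1, spindle motors move the chromosomes, and the anaphase-promoting complex (APC/C) with its partner Cdc20 ends mitosis. Pro-B cells are known to divide in response to IL-7.

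Across the arrays, between 40.9% and 61.8% of spots per sample were well above background, and all 58 tested members were well above background in all 6 samples with no saturated spot. Tcf3, which encodes E2A, read 10.80 and 9.44 on the normalised log2 scale in the E2A-/- samples against 13.39 or more in the other groups. Ebf1 read 10.86 and 10.90 in EBF-/- samples, 12.56 and 12.39 in RAG1-/- samples, and 6.94 and 5.39 in E2A-/- samples. Rag1 read 10.54 and 11.12 in RAG1-/- samples, 9.79 and 9.58 in EBF-/- samples, and 5.58 and 4.41 in E2A-/- samples. No source used here gives the position of the deleted part of either gene, and so neither probe checks its label. All 7 B lineage markers were called higher in RAG1-/- than in EBF-/- cells. Their summed log2 level lay between 19.6 and 19.8 in RAG1-/- and between 11.5 and 14.0 in the other samples. The E2A-/- samples differed, at 14.0 with 7 of 7 genes well above background in replicate 1 and 11.7 with 3 of 7 in replicate 2. Myeloid markers differed within the RAG1-/- group, with a summed log2 level of 12.2 in replicate 1 and 15.6 in replicate 2, against 15.3 to 16.6 elsewhere. Mast cell markers were well above background for 2 of 6 genes in RAG1-/- replicate 1 and 6 of 6 in replicate 2, with summed log2 levels of 7.39 and 11.9. Stromal markers had a summed log2 level of 13.0 and 12.8 in EBF-/- samples against 9.07 to 9.63 in the others. Of these 8 genes, 1 and 3 were well above background in the EBF-/- samples, against 1 to 4 elsewhere. Of the 3 tested in EBF-/- against E2A-/- cells, limma called 1 higher, by 4.97, and the median log2 change was -0.29. Col3a1, Dcn and Lum were not well above background in any sample. T and NK cell markers summed to 15.7 and 15.8 in EBF-/- samples against 13.4 to 13.8 elsewhere. Each summed level adds unlogged signals, so the brightest genes of a list weigh most. Immediate early and stress genes summed to 14.4 and 14.2 in E2A-/- cells and 13.0 and 12.8 in EBF-/- cells. They summed to 11.6 and 11.4 in RAG1-/- cells. In RAG1-/- against EBF-/- cells, limma called 1 of these 7 genes higher and 2 lower (median log2 change 0.08). Their part, and that of the other marker lists, in the results below was not tested.

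RAG1-/- pro-B cells carried more RNA of most replication and mitosis genes than EBF-/- pre-pro-B cells. Of the 58 tested members, 44 were called higher and 1 lower by limma at an adjusted p under 0.05, while 21.4% of all 12621 genes were called higher and 22.6% lower. The median log2 change was 0.86 over the members and 0.04 over all genes. All 25 mitosis members were called higher, with a median log2 change of 1.16 and a range from 0.67 to 1.69. Of the 33 tested replication members, 19 were called higher and 1 lower, with a median of 0.48 and a range from -0.33 to 3.36. The 7 reference genes (Actb, Gapdh, Tbp, Hprt, Ppia, B2m and Ywhaz) had 3 called higher and 0 lower with a median of 0.39, near that of the replication members. Without EBF-/- replicate 2 the members called higher fell to 21, and without EBF-/- replicate 1 to 26, while all genes called higher fell from 2696 to 1125 and 1058; all 25 mitosis members stayed above 0 in either case. With all samples kept, the calls of Pcna, Rfc4, Tk1, Cdc6, Cdt1, Mcm10, Ccne2, Kif23 and Mki67 were each lost under at least 1 other processing setting.

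Against E2A-/- cells, the other pre-pro-B group, 47 of 58 members were called higher in RAG1-/- cells and 0 lower by limma (1 was lower at an unadjusted p under 0.05), with a median log2 change of 0.75 against 0.03 over all genes. In that comparison limma called 22.9% of all genes higher and 23.1% lower. All 25 mitosis members were called higher (median 0.94) and so were 22 of 33 replication members (median 0.45). The comparison shares its RAG1-/- samples with the one above. Without E2A-/- replicate 2, 24 members were called higher, and all genes called higher fell from 2894 to 1661. With all samples kept, the calls of Cdc6, Cdc2a, E2f1, Fen1, Gins1, Kif20a, Kif23, Mcm3, Mcm5, Orc6l, Pole and Tk1 were each lost under at least 1 other setting. The reference genes had 3 called higher and 2 lower, with a median of 0.36. On the array that held RAG1-/- replicate 1 beside E2A-/- replicate 1, all 25 mitosis members and 30 of 33 replication members read higher in the RAG1-/- channel, as did 50.3% of all genes; the channels there also differ in dye.

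EBF-/- and E2A-/- cells, which were cultured alike, showed calls for 8 of the 58 members. Limma called 3 members higher in EBF-/- cells (Prim1, Lig1 and Mcm7) and 5 lower (Rfc3, Ccne1, Rrm2, Plk1 and Mcm10), against 12.6% and 11.7% of all genes. The median log2 change was -0.13 over the members and -0.01 over all genes. Over the mitosis members it was -0.19, with 1 of 25 called lower. Of the 8 calls, 1 (Plk1) held in every fit that kept all samples. None of these 8 calls held in every fit that left out 1 sample, and without E2A-/- replicate 1 limma called no member in either direction, beside 761 of all genes called higher. Leaving out either RAG1-/- sample, which belongs to neither group but adds to the shared spread, raised the calls to 9 members higher and 15 lower. Over all genes, leaving out RAG1-/- replicate 1 gave 2732 higher and 2571 lower. EBF-/- replicate 1 and E2A-/- replicate 2 shared an array. There 6 of 25 mitosis members and 17 of 33 replication members read higher in the EBF-/- channel, as did 49.7% of all genes. These channels also differ in dye.

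**Figure D1:**
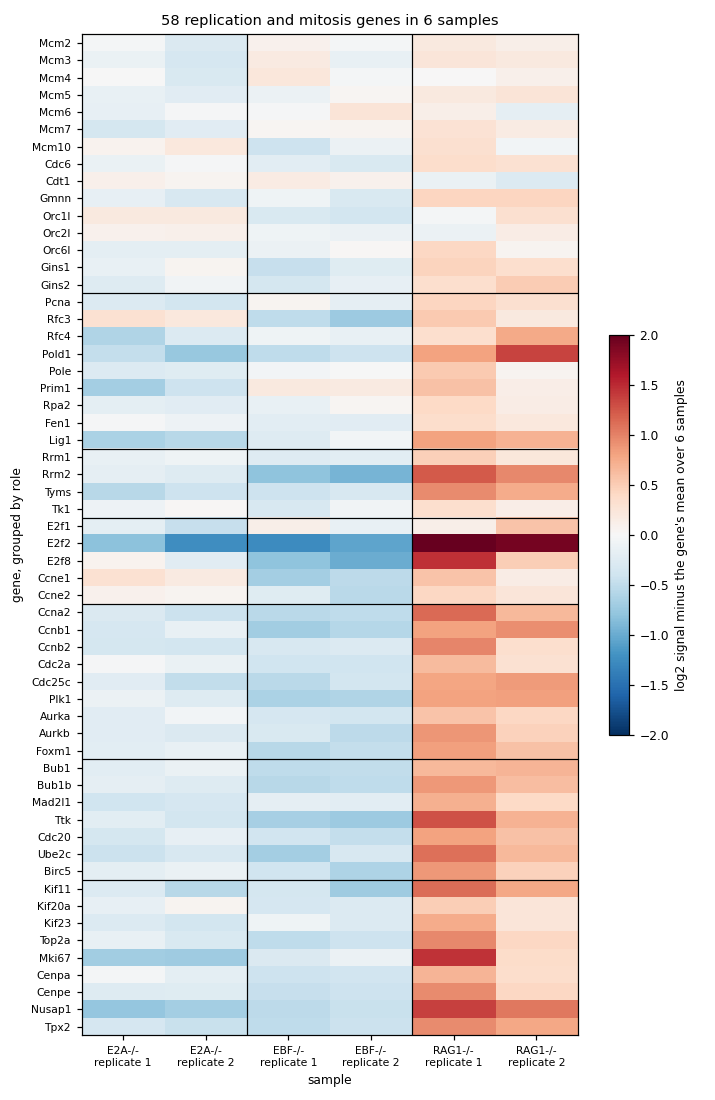
Normalised log2 signal of the 58 tested members (rows, grouped by role) in the 6 array samples (columns), each with the gene's own mean over the 6 samples subtracted; the colour scale ends at 2, which E2f2 exceeds in RAG1-/- replicate 1. The mitosis genes below the fourth dividing line are red in both RAG1-/- columns, with replicate 1 mostly the stronger, and blue or near white in the E2A-/- and EBF-/- columns.

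Sample medians showed the same split. With each gene centred on its mean over the 6 samples, the median of the mitosis members was 0.87 and 0.58 in the RAG1-/- samples, -0.23 and -0.30 in the E2A-/- samples, then -0.46 and -0.42 in the EBF-/- samples. For the replication members it was 0.40 and 0.23 in the RAG1-/- samples, -0.15 and -0.22 in the E2A-/- samples and -0.21 and -0.15 in the EBF-/- samples. The RAG1-/- samples were thus above the other 4 for both sets of genes, and they also differed from each other: 21 of 25 mitosis members and 25 of 33 replication members read lower in replicate 2 than in replicate 1, by a median of 0.32 and 0.14 on the log2 scale. Over all genes the median difference between these samples was -0.01. RAG1-/- replicate 2 is also the sample with the higher myeloid and mast cell marker levels of its group, and the part of those cells in the difference was not tested. With either RAG1-/- sample left out, a fit in which the lone sample is assumed to vary like the other groups, all 25 mitosis members were called higher against both groups. With an EBF-/- sample left out 18 (without replicate 1) and 15 (without replicate 2) of the 25 were called against EBF-/- cells, and with an E2A-/- sample left out 22 and 15 against E2A-/- cells.

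**Figure D2:**
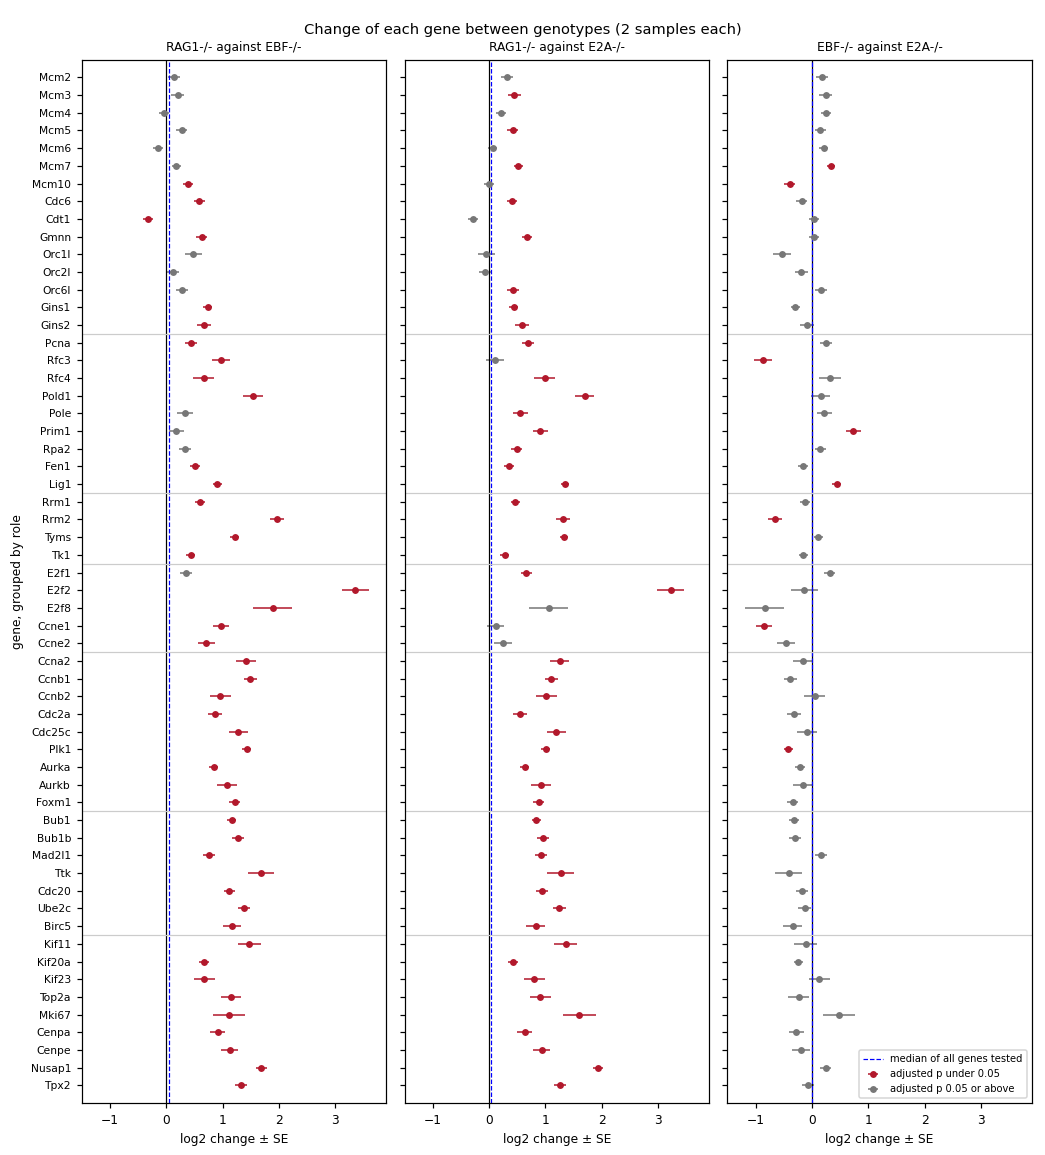
Log2 change of each of the 58 tested members (rows, grouped by role) in the 3 comparisons, with points for the limma estimate and bars for its SE. Red points have an adjusted p under 0.05, and the dashed line is the median of all 12621 genes. The mitosis genes in the lower part lie to the right of 0 in both comparisons with RAG1-/- cells, E2f2 lies farthest right at 3.36 and 3.22, and most points of the EBF-/- against E2A-/- panel lie close to 0.

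Replication and mitosis genes are known to use different promoter elements, E2F sites and the cell cycle gene homology region (CHR) respectively, the latter often beside CCAAT boxes. RefSeq promoters of build GRCm38.p6, from 250 bases before to 50 after the annotated start, were at hand for 47 of 59 members, 28 of replication and 19 of mitosis. Those of 5 members are printed to show both types: Mcm6 as a helicase gene that was not called in any comparison, E2f2 and E2f8 as the replication members with an E2F-type match and the largest changes in RAG1-/- against EBF-/- cells, and Ttk and Kif11 as the mitosis members with a CHR-type match and the largest changes in that comparison. They lie at chr1:128359656-128359955 (minus strand), chr4:136172024-136172323 (plus), chr7:48881547-48881846 (minus), chr9:83834439-83834738 (plus) and chr19:37376132-37376431 (plus). Each is written 5′ to 3′ on the gene's strand, and capitals mark matches to TTCCCGC or TTGGCGC (E2F-type) or to TTTGAA (CHR-type) on either strand.
Mcm6: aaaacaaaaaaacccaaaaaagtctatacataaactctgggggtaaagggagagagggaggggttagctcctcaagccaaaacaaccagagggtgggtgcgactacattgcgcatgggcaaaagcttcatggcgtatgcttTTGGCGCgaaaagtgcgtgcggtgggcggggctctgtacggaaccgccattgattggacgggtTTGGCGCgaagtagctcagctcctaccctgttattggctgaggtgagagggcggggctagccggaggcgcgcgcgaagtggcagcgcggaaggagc
E2f2: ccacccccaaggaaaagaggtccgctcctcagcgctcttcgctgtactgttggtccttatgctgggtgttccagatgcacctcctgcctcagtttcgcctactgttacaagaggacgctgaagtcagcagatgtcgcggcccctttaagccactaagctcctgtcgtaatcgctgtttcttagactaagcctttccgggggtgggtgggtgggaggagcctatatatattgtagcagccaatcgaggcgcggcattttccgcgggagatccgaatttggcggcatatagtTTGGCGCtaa
E2f8: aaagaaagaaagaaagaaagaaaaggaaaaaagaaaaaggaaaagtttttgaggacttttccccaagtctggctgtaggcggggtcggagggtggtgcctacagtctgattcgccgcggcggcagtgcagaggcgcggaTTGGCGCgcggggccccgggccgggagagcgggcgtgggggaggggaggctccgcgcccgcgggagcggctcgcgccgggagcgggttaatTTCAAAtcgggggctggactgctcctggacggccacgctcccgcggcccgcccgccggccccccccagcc
Ttk: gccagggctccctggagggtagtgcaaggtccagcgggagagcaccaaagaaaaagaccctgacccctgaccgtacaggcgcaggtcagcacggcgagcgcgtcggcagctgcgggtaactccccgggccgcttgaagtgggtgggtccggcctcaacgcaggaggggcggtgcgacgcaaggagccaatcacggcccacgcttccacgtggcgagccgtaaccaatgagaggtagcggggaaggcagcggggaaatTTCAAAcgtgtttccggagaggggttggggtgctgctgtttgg
Kif11: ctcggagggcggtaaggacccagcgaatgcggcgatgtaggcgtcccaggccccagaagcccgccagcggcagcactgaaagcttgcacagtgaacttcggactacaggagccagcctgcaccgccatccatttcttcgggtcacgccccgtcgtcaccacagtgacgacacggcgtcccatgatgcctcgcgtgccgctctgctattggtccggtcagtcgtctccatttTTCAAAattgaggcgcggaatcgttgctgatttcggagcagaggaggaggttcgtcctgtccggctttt
Mcm6 holds 2 E2F-type matches, at 109 and 46 bases before the start, and no CHR-type match. E2f2 has 2 promoters in the table; the one shown holds an E2F-type match 40 bases after the start, and the other holds a CHR-type match. E2f8 holds both types, Ttk holds a CHR-type match 7 bases after the start, and Kif11 holds one that begins 19 bases before it. A match is a run of letters and not a measured site.

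Over the members, the E2F-type motif was found in the promoters of 16 of 28 replication members and 3 of 19 mitosis members, against 13.8% of 9812 tested genes with a promoter and 6.81% of all 32851 promoters. The CHR-type motif showed the other pattern, with 4 of 28 replication members and 13 of 19 mitosis members, against 14.5% of tested genes and 17.9% of all promoters. CCAAT was found in 18 of 28 replication and 16 of 19 mitosis members, against 43.3% of tested genes and 37.4% of all promoters. Among the replication members the E2F-type matches covered Mcm3, Mcm5, Mcm6 and Mcm7, Cdc6 and Cdt1, and the fork genes Pold1, Prim1, Rpa2 and Lig1. Among the mitosis members the CHR-type matches covered Plk1, Aurka, Ccnb2, Cdc20, Ube2c, Top2a and Cenpa, and Cdc2a and Mki67 held both types. E2F-type and CCAAT matches overlapped in 4 members (Ccnb1, E2f8, Mcm7 and Prim1), since TTGGCGC can share letters with CCAAT read on the other strand. No match was found for any of the 3 motifs in Nusap1, Birc5, Mad2l1, Tyms, Tk1, E2f1 or Ccne1. This says only that these letters are not in this window. Cdt1 and Mcm6, with E2F-type matches, were not higher in RAG1-/- cells, so a match and a higher level did not go together in every gene.

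**Figure D3:**
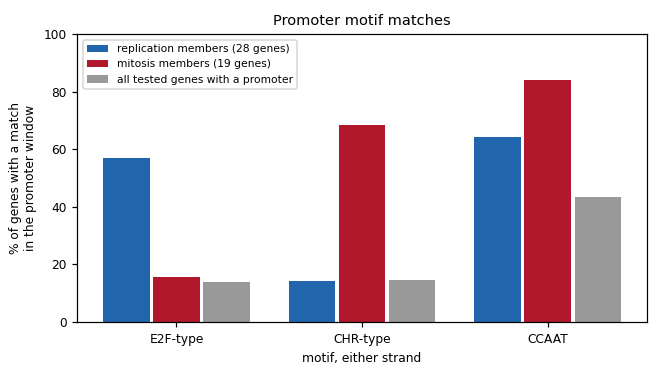
Share of genes with at least 1 match, on either strand, to each of 3 motifs in the promoter window, for replication members (blue), mitosis members (red) and all tested genes with a promoter in the table (grey). E2F-type matches are most frequent among replication members (16 of 28) and CHR-type matches among mitosis members (13 of 19).

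Origin licensing was the role with the smallest share of members called higher against EBF-/- cells. Of 15 genes, 5 were called higher and 1 lower in RAG1-/- against EBF-/- cells (median log2 change 0.27), and 8 were called higher against E2A-/- cells (median 0.41). None of Mcm2 to Mcm7, the 6 subunits of the replicative helicase, was called against EBF-/- cells, where their log2 changes ran from -0.15 to 0.27 and 1 was higher at an unadjusted p under 0.05 in limma. Mcm3, Mcm5 and Mcm7 were called higher against E2A-/- cells, by 0.45, 0.42 and 0.52. These calls depend on the scaling. With each channel scaled by its 75th percentile, Mcm3, Mcm5 and Mcm7 were also called higher against EBF-/- cells, by 0.42, 0.49 and 0.40. Mcm4 and Mcm6 moved from -0.04 and -0.15 to 0.17 and 0.14, still not called.

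Mcm2 read 14.16 and 13.91 in E2A-/- cells, 14.28 and 14.16 in EBF-/- cells, then 14.39 and 14.32 in RAG1-/- cells. The RAG1-/- samples were the highest, but the steps between groups were small, and no comparison was called (adjusted p from 0.0671 to 0.348). Mcm7 read 15.40 and 15.52 in E2A-/- cells, 15.79 and 15.80 in EBF-/- cells, then 16.04 and 15.91 in RAG1-/- cells. Its 3 groups did not overlap and stood in that order, with RAG1-/- above E2A-/- by 0.52 ± 0.08 (SE, n = 2 and 2; adjusted p = 0.00733) and EBF-/- above E2A-/- by 0.34 ± 0.08 (adjusted p = 0.0413); the second call was lost with 75th percentile scaling (adjusted p = 0.102). Cdt1, the loading factor that is destroyed once replication starts, read 15.05 and 15.00 in E2A-/- cells, 15.11 and 15.02 in EBF-/- cells, then 14.81 and 14.67 in RAG1-/- cells. It was the single member called lower in RAG1-/- cells, by -0.33 ± 0.09 against EBF-/- (adjusted p = 0.0431), with both RAG1-/- samples below the other 4; with 75th percentile scaling the change was -0.13 and was not called (adjusted p = 0.324).

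Gmnn encodes geminin, the inhibitor that binds Cdt1, and moved the other way. It read 15.71 and 15.55 in E2A-/- cells, 15.78 and 15.56 in EBF-/- cells, then 16.30 and 16.29 in RAG1-/- cells. RAG1-/- cells were 1.54-fold higher than EBF-/- (log2 change 0.63 ± 0.09, adjusted p = 0.00733) and 1.59-fold higher than E2A-/- cells (0.67 ± 0.09, adjusted p = 0.00584), and both pre-pro-B groups overlapped. Gins1 and Gins2, subunits of the GINS complex that joins the helicase at the fork, were also higher. Gins1 read 12.41 and 12.61 in E2A-/- cells, 12.10 and 12.32 in EBF-/- cells, then 13.01 and 12.89 in RAG1-/- cells, and Gins2 read 12.08 and 12.27, 11.99 and 12.18, and 12.68 and 12.84 in the same order. Both RAG1-/- samples exceeded the other 4 for either gene, and the log2 changes against EBF-/- cells were 0.74 ± 0.08 (adjusted p = 0.00335) and 0.67 ± 0.12 (adjusted p = 0.0135). Cdc6, which loads the helicase with Cdt1, was called higher against both groups, by 0.58 and 0.41, but in a fit per probe its second probe read the other way, by -0.53 ± 0.17 against EBF-/- (adjusted p = 0.0664) and -0.23 ± 0.17 against E2A-/- cells (adjusted p = 0.348), so the direction for Cdc6 is uncertain. Of the origin recognition subunits, Orc1l and Orc2l were not called in any comparison, with log2 changes from -0.53 to 0.48, and Orc6l was called higher against E2A-/- cells, by 0.43. Mcm10, which acts when origins fire, was higher in RAG1-/- than in EBF-/- cells by 0.39 and lower in EBF-/- than in E2A-/- cells by -0.40.

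At the replication fork, 6 of 9 tested genes were called higher in RAG1-/- against EBF-/- cells (median log2 change 0.51) and 8 of 9 against E2A-/- cells (median 0.69). Pold1, the catalytic subunit of DNA polymerase delta, read 13.85 and 13.57 in E2A-/- cells, 13.81 and 13.92 in EBF-/- cells, then 15.12 and 15.68 in RAG1-/- cells. The pre-pro-B samples lay together with the RAG1-/- samples well above them, a 2.90-fold difference from EBF-/- (1.54 ± 0.17, adjusted p = 0.00366) and 3.24-fold from E2A-/- (1.69 ± 0.17, adjusted p = 0.00263). Lig1, the ligase that seals fragments of the lagging strand, read 13.90 and 13.98 in E2A-/- cells, 14.28 and 14.48 in EBF-/- cells, then 15.33 and 15.23 in RAG1-/- cells. Its 3 groups did not overlap: RAG1-/- exceeded EBF-/- by 0.91 ± 0.08 (adjusted p = 0.00192) and E2A-/- by 1.34 ± 0.08 (adjusted p = 0.000756), and EBF-/- exceeded E2A-/- by 0.44 ± 0.08 (adjusted p = 0.0213).

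Pcna, the sliding clamp that holds polymerases on DNA and a usual marker of dividing cells, read 16.15 and 16.05 in E2A-/- cells, 16.47 and 16.24 in EBF-/- cells, then 16.84 and 16.74 in RAG1-/- cells. The RAG1-/- samples were the highest, by a modest 1.35-fold over EBF-/- (0.44 ± 0.11, adjusted p = 0.0297) and 1.61-fold over E2A-/- cells (0.69 ± 0.11, adjusted p = 0.00795). Rfc4, a subunit of the loader that places the clamp, read 13.07 and 13.41 in E2A-/- cells, 13.59 and 13.52 in EBF-/- cells, then 14.02 and 14.43 in RAG1-/- cells. It was called higher against both, by 0.66 ± 0.19 (adjusted p = 0.0491) and 0.98 ± 0.19 (adjusted p = 0.016), with no overlap of RAG1-/- and the rest; the first call was lost without the filter on dim probes (adjusted p = 0.103). Prim1, the small catalytic subunit of primase, read 13.35 and 13.61 in E2A-/- cells, 14.23 and 14.21 in EBF-/- cells, then 14.63 and 14.17 in RAG1-/- cells. Here the E2A-/- samples stood alone at the bottom and the other groups overlapped: EBF-/- exceeded E2A-/- by 0.73 ± 0.13 (adjusted p = 0.0245) and RAG1-/- exceeded E2A-/- by 0.91 ± 0.13 (adjusted p = 0.00724). Rfc3, another clamp loader subunit, was lower in EBF-/- than in E2A-/- cells by -0.87 ± 0.16 (adjusted p = 0.025) and higher in RAG1-/- than in EBF-/- cells by 0.97 ± 0.16 (adjusted p = 0.0105). Fen1, which trims fragment ends, was called higher against both groups, by 0.51 and 0.35, and Pole and Rpa2 against E2A-/- cells, by 0.55 and 0.49. Pola1, measured on 3 of the 4 arrays and not tested, read 12.21 in E2A-/- replicate 2, 12.25 and 12.32 in EBF-/-, and 13.44 in RAG1-/- replicate 2.

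All 4 genes of nucleotide supply were called higher in RAG1-/- cells against both groups. Rrm2, the small subunit of ribonucleotide reductase, read 12.84 and 12.76 in E2A-/- cells, 12.22 and 12.09 in EBF-/- cells, then 14.25 and 13.99 in RAG1-/- cells. The groups did not overlap, with EBF-/- lowest: RAG1-/- was 3.91-fold above EBF-/- (1.97 ± 0.12, adjusted p = 0.0011) and 2.49-fold above E2A-/- cells (1.32 ± 0.12, adjusted p = 0.00219), and EBF-/- differed from E2A-/- by -0.65 ± 0.12 (adjusted p = 0.0266). Rrm1, the large subunit, moved less. It read 14.65 and 14.71 in E2A-/- cells, 14.53 and 14.58 in EBF-/- cells, then 15.27 and 15.03 in RAG1-/- cells, a change of 0.60 ± 0.09 against EBF-/- (adjusted p = 0.00748) and 0.47 ± 0.09 against E2A-/- cells (adjusted p = 0.0141). Tyms, which makes thymidylate, read 13.41 and 13.56 in E2A-/- cells, 13.56 and 13.65 in EBF-/- cells, then 14.92 and 14.71 in RAG1-/- cells. The 4 pre-pro-B samples lay close together, and RAG1-/- cells were 2.32-fold above EBF-/- (1.21 ± 0.08, adjusted p = 0.0011) and 2.51-fold above E2A-/- cells (1.33 ± 0.08, adjusted p = 0.000776). Tk1, the thymidine kinase of the salvage route, rose by 0.43 and 0.28.

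E2f2, an activator of the E2F family, differed most of all 58 members. It read 12.32 and 11.90 in E2A-/- cells, 11.88 and 12.08 in EBF-/- cells, then 15.60 and 15.06 in RAG1-/- cells. The pre-pro-B groups overlapped and the RAG1-/- samples lay far above them, by 10.3-fold over EBF-/- (3.36 ± 0.24, adjusted p = 0.00145) and 9.32-fold over E2A-/- cells (3.22 ± 0.24, adjusted p = 0.00133). E2f1, another activator, was called higher in RAG1-/- against E2A-/- cells, by 0.66 ± 0.11 (adjusted p = 0.00897), but not against EBF-/- cells (0.35 ± 0.11, adjusted p = 0.0532). E2f8, an atypical family member known as a repressor, read 10.42 and 10.13 in E2A-/- cells, 9.54 and 9.35 in EBF-/- cells, then 11.82 and 10.85 in RAG1-/- cells. Its RAG1-/- samples were highest but far apart, and it was called higher against EBF-/- (1.89 ± 0.35, adjusted p = 0.0139) and not against E2A-/- cells (1.05 ± 0.35, adjusted p = 0.0668). Ccne1, cyclin E1, which starts replication with Cdk2, read 13.97 and 13.84 in E2A-/- cells, 12.98 and 13.13 in EBF-/- cells, then 14.23 and 13.81 in RAG1-/- cells. EBF-/- cells stood apart at the bottom, -0.85 ± 0.15 from E2A-/- (adjusted p = 0.021), with RAG1-/- above them by 0.97 ± 0.15 (adjusted p = 0.00819) and overlapping E2A-/- cells. Ccne2, cyclin E2, was called higher in RAG1-/- than in EBF-/- cells, by 0.71, and not against E2A-/- cells, where the change was 0.25.

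The 9 mitotic cyclins, kinases and Foxm1 were all called higher in RAG1-/- cells, with medians of 1.22 against EBF-/- and 1.00 against E2A-/- cells. Ccnb1, cyclin B1, read 11.43 and 11.62 in E2A-/- cells, 11.07 and 11.20 in EBF-/- cells, then 12.56 and 12.69 in RAG1-/- cells. RAG1-/- cells were 2.81-fold above EBF-/- (1.49 ± 0.11, adjusted p = 0.00162) and 2.15-fold above E2A-/- cells (1.10 ± 0.11, adjusted p = 0.00276), with no overlap among groups. Ccna2, cyclin A2, which acts in both replication and mitosis, read 13.73 and 13.59 in E2A-/- cells, 13.48 and 13.52 in EBF-/- cells, then 15.16 and 14.67 in RAG1-/- cells. It was 2.67-fold above EBF-/- (1.42 ± 0.17, adjusted p = 0.00444) and 2.38-fold above E2A-/- cells (1.25 ± 0.17, adjusted p = 0.00582). Plk1, a kinase of spindle assembly and mitotic exit, read 13.58 and 13.44 in E2A-/- cells, 13.07 and 13.10 in EBF-/- cells, then 14.51 and 14.52 in RAG1-/- cells. Its replicates were close and its groups separate, and it was called in all 3 comparisons: 1.43 ± 0.08 against EBF-/- (adjusted p = 0.000912), 1.00 ± 0.08 against E2A-/- (adjusted p = 0.00158), and -0.42 ± 0.08 for EBF-/- against E2A-/- cells (adjusted p = 0.0284). Cdc2a, the probe annotation's name for Cdk1, the main mitotic kinase, read 12.86 and 12.75 in E2A-/- cells, 12.49 and 12.48 in EBF-/- cells, then 13.51 and 13.19 in RAG1-/- cells. Its changes, 0.87 ± 0.13 (adjusted p = 0.00778) and 0.55 ± 0.13 (adjusted p = 0.0275), were smaller than those of the cyclins that activate it. Foxm1, a transcription factor of mitotic genes, changed by 1.22 and 0.88, the kinases Aurka and Aurkb by 0.84 and 1.08 against EBF-/- cells, and the Cdk1 phosphatase Cdc25c by 1.28.

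All 7 genes of the spindle checkpoint and the APC/C were called higher against both pre-pro-B groups, with medians of 1.17 and 0.94. Ttk, the kinase at the top of the checkpoint, read 8.47 and 8.32 in E2A-/- cells, 8.02 and 7.96 in EBF-/- cells, then 9.95 and 9.38 in RAG1-/- cells. Both RAG1-/- samples exceeded the rest, by 3.22-fold over EBF-/- (1.69 ± 0.23, adjusted p = 0.00647) and 2.41-fold over E2A-/- cells (1.27 ± 0.23, adjusted p = 0.0135). Bub1b, which holds the APC/C inactive until chromosomes are attached, read 12.80 and 12.72 in E2A-/- cells, 12.43 and 12.48 in EBF-/- cells, then 13.84 and 13.59 in RAG1-/- cells. Its 3 groups stayed apart, at 1.27 ± 0.11 (adjusted p = 0.00194) and 0.96 ± 0.11 (adjusted p = 0.00337) for RAG1-/- against EBF-/- and E2A-/- cells. Ube2c, the ubiquitin-conjugating enzyme that works with the APC/C, read 12.58 and 12.69 in E2A-/- cells, 12.33 and 12.69 in EBF-/- cells, then 14.10 and 13.66 in RAG1-/- cells. The pre-pro-B groups overlapped, and RAG1-/- cells lay above them by 1.38 ± 0.11 (adjusted p = 0.00175) and 1.25 ± 0.11 (adjusted p = 0.00188). Cdc20, the APC/C activator, changed by 1.12 and 0.94, Birc5 (survivin, a partner of Aurkb) by 1.17 and 0.82, and Mad2l1, the checkpoint protein that binds Cdc20, by 0.76 and 0.92.

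The 9 spindle motor, centromere and chromosome genes were likewise all called higher, with medians of 1.12 and 0.93. Nusap1, which bundles spindle microtubules, read 11.98 and 12.07 in E2A-/- cells, 12.23 and 12.31 in EBF-/- cells, then 14.11 and 13.81 in RAG1-/- cells. RAG1-/- cells were 3.23-fold above EBF-/- (1.69 ± 0.09, adjusted p = 0.000854) and 3.82-fold above E2A-/- cells (1.93 ± 0.09, adjusted p = 0.000583), with no overlap. Kif11, the motor that pushes spindle poles apart, read 10.55 and 10.27 in E2A-/- cells, 10.48 and 10.12 in EBF-/- cells, then 11.94 and 11.60 in RAG1-/- cells. The pre-pro-B groups overlapped, and RAG1-/- cells exceeded them by 1.47 ± 0.20 (adjusted p = 0.00632) and 1.36 ± 0.20 (adjusted p = 0.00744). Top2a, the topoisomerase that untangles sister chromosomes, read 12.77 and 12.63 in E2A-/- cells, 12.42 and 12.51 in EBF-/- cells, then 13.88 and 13.34 in RAG1-/- cells. It was 2.22-fold above EBF-/- (1.15 ± 0.18, adjusted p = 0.00919) and 1.88-fold above E2A-/- cells (0.91 ± 0.18, adjusted p = 0.0168). Mki67, which coats mitotic chromosomes and is the usual marker of proliferation, read 14.55 and 14.54 in E2A-/- cells, 14.96 and 15.12 in EBF-/- cells, then 16.69 and 15.61 in RAG1-/- cells. Its groups did not overlap, but the RAG1-/- samples were farther apart than for any other mitosis member, and the changes of 1.12 ± 0.29 against EBF-/- (adjusted p = 0.0354) and 1.60 ± 0.29 against E2A-/- cells (adjusted p = 0.0126) have a large error; without EBF-/- replicate 2 the first was not called (0.94, adjusted p = 0.16). Tpx2, which activates Aurka on the spindle, changed by 1.33 and 1.26, and the motor Kif20a showed the smallest changes of the mitosis members, 0.67 and 0.43.

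**Figure D4:**
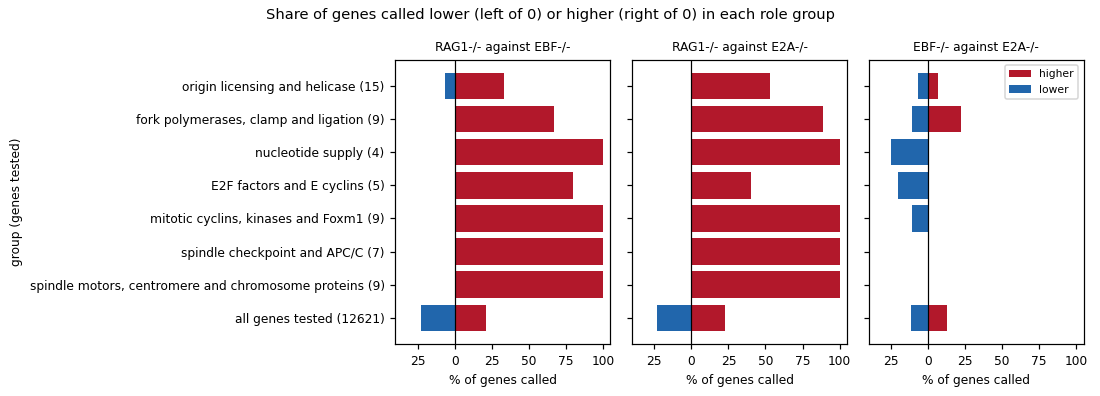
Share of tested genes called higher (red, right of 0) or lower (blue, left of 0) by limma at an adjusted p under 0.05, for the 7 role groups and for all 12621 genes, in 3 comparisons. Every mitosis group reaches 100% higher in both comparisons with RAG1-/- cells, origin licensing has 5 of 15 and 8 of 15, and no group exceeds 25% in either direction between EBF-/- and E2A-/- cells.

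Where a member had a further probe that passed the filter, the readings mostly agreed in direction. There were 25 such probes. Of these, 24 had the sign of the probe used in RAG1-/- against EBF-/- cells, 24 in RAG1-/- against E2A-/- and 21 in EBF-/- against E2A-/- cells. None was called in the opposite direction to its partner. In the same order, 6, 9 and 2 of the 25 differed in call, with 1 probe of the pair called and the other not. The probe that disagreed in sign in both comparisons with RAG1-/- cells was the second one of Cdc6.

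Other genes of the same pathways were taken from lists also chosen with earlier results of these data known. The mitosis genes among them followed the members in kind. Over all genes, limma called 21.4% higher and 22.6% lower in RAG1-/- against EBF-/- cells. Against E2A-/- cells it called 22.9% higher and 23.1% lower. Of 39 other tested mitosis genes, 33 were called higher and 1 lower in RAG1-/- against EBF-/- cells (median log2 change 1.15), and 33 higher and 1 lower against E2A-/- cells (median 1.01). Of 30 other replication genes, 13 were called higher and 1 lower against EBF-/- cells (median 0.32). Against E2A-/- cells, 16 were called higher and 0 lower (median 0.50). The medians of the reference genes were 0.39 and 0.36, the first of them above that of these replication genes. Of 12 E2F and pocket protein genes, 6 were called higher and 0 lower against EBF-/- and 5 higher and 1 lower against E2A-/- cells. Between EBF-/- and E2A-/- cells the counts were 1 higher and 3 lower for mitosis and 1 and 0 for replication. They were 1 and 2 for the E2F and pocket group, against 12.6% and 11.7% of all genes.

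Cdc25b, a phosphatase that activates Cdk1, had the largest change among them. It read 11.23 and 10.20 in E2A-/- cells, 10.80 and 10.86 in EBF-/- cells, then 14.42 and 14.13 in RAG1-/- cells, which puts RAG1-/- cells 11.0-fold above EBF-/- (3.46 ± 0.34, adjusted p = 0.0028) and 11.8-fold above E2A-/- cells (3.56 ± 0.35, adjusted p = 0.00235). E2f7, the close relative of E2f8, read 9.49 and 9.08, 9.53 and 9.15, and 12.66 and 12.27 in the same order, with changes of 3.12 ± 0.24 (adjusted p = 0.0016) and 3.18 ± 0.24 (adjusted p = 0.0013). All 4 pre-pro-B samples lay well below the RAG1-/- samples for both genes, though the E2A-/- samples of Cdc25b were far apart. Zwint, a kinetochore protein, went the other way, at 14.93 and 14.84 in E2A-/- cells, 14.31 and 14.39 in EBF-/- cells, then 13.72 and 13.32 in RAG1-/- cells. It was lower in RAG1-/- cells by -0.82 ± 0.14 against EBF-/- (adjusted p = 0.0106) and -1.36 ± 0.14 against E2A-/- cells (adjusted p = 0.00255). Rfc2, a clamp loader subunit, was lower in RAG1-/- than in EBF-/- cells by -0.77 ± 0.08 (adjusted p = 0.00339), and E2f6, a repressor of the family, lower than in E2A-/- cells by -0.36 ± 0.10 (adjusted p = 0.0378). In EBF-/- against E2A-/- cells, Tfdp2, a binding partner of E2F proteins, changed by 1.67 ± 0.17 (adjusted p = 0.00653) and Pttg1 (securin) by 1.29 ± 0.10 (adjusted p = 0.00386), while Rb1, the retinoblastoma protein, changed by -0.74 ± 0.11 (adjusted p = 0.0164) and Mybl2, an activator of mitotic genes, by -0.71 ± 0.10 (adjusted p = 0.0129).

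ChIP-seq regions deposited for EBF-/- and RAG1-/- cells were read near the members' probes, with 1 library per mark and cell type, so that no difference between cell types can be tested. The array design gives probe positions on mm8, and a region within 25 kb of the probe was counted. Probes mostly lie toward the 3′ end of a gene, so a promoter farther away is missed. A counted region can also belong to a neighbouring gene, so the counts are not counts of marked member promoters. The H3K4me3 region counted for Nusap1 lay 13451 bases downstream of its probe in EBF-/- and 13474 in RAG1-/- cells. H3K4me3, a mark of active promoters, had a region near 49 of 59 members in EBF-/- and 50 of 59 in RAG1-/- cells, against 59.8% and 67.5% of 12596 tested genes with a position. H3K9/14ac, an acetylation mark of active promoters, had one near 51 and 50 members, against 68.5% and 67.2%. The H3K4me3 counts shared 49 members, with Pola1 added in RAG1-/- cells, and the 9 members with no H3K4me3 region in either cell type were Mcm6, Pole, Lig1, Rrm1, Bub1b, Ttk, Mki67, Cenpe and Tpx2. With a window of 50 kb on each side, 56 and 58 members had an H3K4me3 region, against 58.96% and 67.39% of all array genes with a position, tested or not (44.2% and 52.4% of them at 25 kb).

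H3K27me3, a mark of silenced genes, had a region near 3 members in EBF-/- cells (Pole, Rpa2 and Cdc25c) and 6 in RAG1-/- cells (Rfc4, Rpa2, Cdc25c, Birc5, Kif11 and Top2a), against 4.65% and 8.53% of tested genes. H3K4me2 regions lay near 55 and 53 members, against 78.3% and 78.7%. H3K4me1, a mark of enhancers and promoter flanks, lay near 19 members in EBF-/- and 47 in RAG1-/- cells, but the deposited lists differ in length, 7544 and 23054 regions, and the shares of tested genes moved alike, from 32.8% to 70.6%. The mock immunoprecipitation had no region near any member, with 0.67% of tested genes near one.

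**Figure D5:**
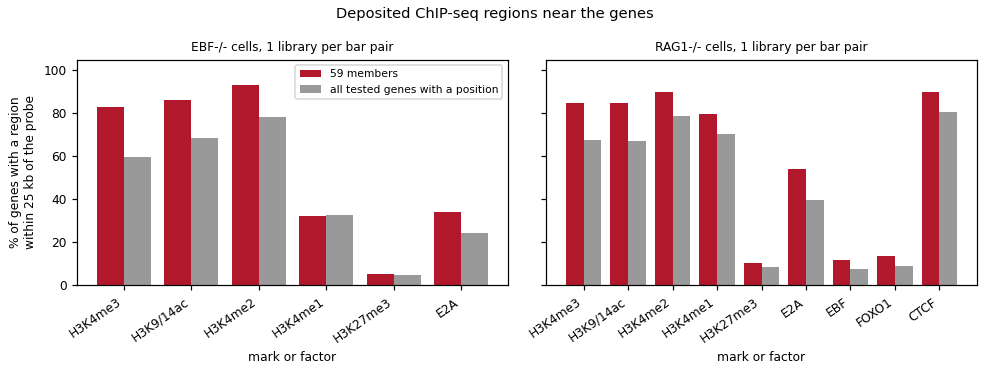
Share of genes with a deposited ChIP-seq region within 25 kb of the array probe, for the 59 members (red) and for 12596 tested genes with a position (grey), in EBF-/- cells (left) and RAG1-/- cells (right), with 1 library per pair of bars. Members exceed the tested genes for H3K4me3, H3K9/14ac and H3K4me2 in both cell types, and H3K27me3 stays at or below 10.2% throughout.

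Regions bound by the B lineage factors were found near some members. E2A, the factor deleted in the E2A-/- cells, had regions near 20 members in EBF-/- and 32 in RAG1-/- cells, against 24.3% and 39.5% of tested genes, and 16 members had one in both. In RAG1-/- cells EBF had a region near 7 members (Cdc6, Gins2, Pold1, E2f1, E2f2, Birc5 and Kif20a) and FOXO1 near 8 (Mcm7, Orc2l, Orc6l, E2f8, Ccne2, Kif20a, Cenpa and Tpx2), against 7.53% and 8.76%. CTCF lay near 53 members, against 80.4%. In E2A-/- cells that carried E47-ER, an E2A protein switched on by tamoxifen, E2A regions lay near 46 members at 1 h and 31 at 6 h, against 63.3% and 47.5% of tested genes.

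E2f2, the member with the largest change, had E2A regions upstream of its probe in both cell types, at chr4:135449287-135449486 and chr4:135449859-135450058 in EBF-/- cells and at chr4:135449290-135449489 and chr4:135449861-135450060 in RAG1-/- cells (mm8). The RAG1-/- EBF region at chr4:135449473-135449672 overlapped the first of these pairs. An H3K4me3 region stood farther upstream in both, at chr4:135444470-135445469 in EBF-/- and chr4:135444505-135445504 in RAG1-/- cells, 21783 and 21748 bases upstream of the probe. The EBF-/- cells, in which the E2f2 signal was the lower, also had H3K4me3 and E2A regions in the window. The scores of this H3K4me3 region stood at percentile 39.2 of the list in EBF-/- and 99.3 in RAG1-/- cells. An H3K9/14ac region overlapping it stood at 74.4 and 98.9. An H3K4me2 region overlapping the same H3K4me3 region stood at 98.8 in EBF-/- cells, and the RAG1-/- list held none there. The E2A regions stood at 97.6 and 98.8 in EBF-/- cells and at 99.3 and 98.9 in RAG1-/- cells. For Nusap1, also higher in RAG1-/- cells, the H3K4me3 region stood at 55.9 in EBF-/- and 50.0 in RAG1-/- cells. For Rrm2 it stood at 63.8 and 97.5, and for E2f8 at 53.1 and 76.6. These percentiles come from 1 library each and lists of different length, and no difference between them was tested. E2f8 had H3K4me3 regions in both cell types, 14361 and 15091 bases upstream of its probe. It also had E2A and FOXO1 regions in RAG1-/- cells that overlapped at chr7:48756042-48756241 and chr7:48756091-48756166. This E2A region stood at percentile 83.8 of its list, and the FOXO1 region low in its own, at 16.7. The distances are to the middle of the probe, and none of these regions was assigned to an exon, intron or promoter, since no annotation of build mm8 was used here.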

How the data were processed

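RNA of 6 samples was measured on 4 two-colour Agilent arrays. Per the file headers, the deposited intensity values were extracted with Agilent Feature Extraction 9.5.3.1, background-subtracted and dye-normalized within each array by the authors. Channels were assigned to samples by dye; 2 channels that no label describes were not used. Here log2 intensities were quantile normalized across the 6 channels, and spots of the same probe were averaged after control and outlier spots had been dropped. A probe was kept where both samples of some group lay well above background (22133 of 41099 probes), which left 12621 genes of 20609 named on the array. Names were updated through RefSeq genes of GRCm38.p6. A single limma model (limma 3.58.1 under R 4.3.3) covered the 6 samples. It had terms for group and dye, with the array as a random block. The block correlation was -0.03, estimated without the dye term. The p-values were adjusted by Benjamini-Hochberg over all genes. The fit had 2 residual degrees of freedom. It was tested on simulated data with changes put into the RAG1-/- samples. Against EBF-/- cells it called 27 of 67 genes with a log2 change of 1, 48 of 67 with 2 and 62 of 66 with 4. Of 12421 unchanged genes, 2 were called. The simulation changed a smaller share of genes than was called in the data, so these counts are not detection rates for the data.

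Per the submitters' processing notes, ChIP-seq used HOMER and build mm8; the fifth column of the deposited region lists is a score, on a scale that no source used here gives. Motifs and regions were counted with Python 3.11.15. Values in full are given for the 3 members per role with the largest called change, for those called against the majority of a comparison, and for Mki67, Pcna, Top2a, Cdc2a and Mcm2; of the other pathway genes, the 2 with the largest called change in each direction and comparison are named. The members and lists were chosen with earlier results of these data known. Normexp with loess was not run, since it needs the 2 undescribed channels. The correlations of same-numbered deviations were -0.40 for E2A-/- and EBF-/-, 0.16 for E2A-/- and RAG1-/-, and 0.02 for EBF-/- and RAG1-/- samples. With 2 samples a group, the negative value means that E2A-/- and EBF-/- samples of unlike number deviated alike. Of these, EBF-/- replicate 1 and E2A-/- replicate 2 shared an array.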

Additional observations from a re-analysis of the deposited data

How the results depend on the processing

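In RAG1-/- against EBF-/- cells the members called higher stayed between 40 and 49 in the fits that kept all samples and between 21 and 47 with 1 sample left out; in RAG1-/- against E2A-/- cells they stayed between 39 and 49, and between 24 and 49. The median change of the members lay between 0.72 and 0.94 against EBF-/- and between 0.59 and 0.81 against E2A-/- cells with 1 sample left out, and was 0.84 against E2A-/- cells with 75th percentile scaling. The single lower member against EBF-/- cells (Cdt1) was not called with 75th percentile scaling, without the filter on dim probes or with a crossed replicate block, each giving 0, and leaving out 1 sample gave 0 or 1. Against E2A-/- cells 1 member was called lower without the dye term, and leaving out 1 sample gave 0 or 1.

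Of the 45 calls against EBF-/- cells, 36 held in every fit that kept all samples and 19 in every fit that left out 1; of the 47 against E2A-/- cells, 35 and 24 held, with no change of sign. Of the 8 calls in EBF-/- against E2A-/- cells, 1 (Plk1) held in every fit that kept all samples. In that comparison, 1 member was called higher with 75th percentile scaling, without the filter, with the replicate block in place of the dye term, and with the crossed block. Without the filter 1 was called lower, where all genes called lower were 922. Leaving out 1 sample gave 0 to 9 members higher, 0 to 15 lower, and a median from -0.18 to 0.0063. Over all genes, leaving out 1 sample gave 225 to 2734 higher and 234 to 2577 lower in EBF-/- against E2A-/-, 1058 to 2804 and 1230 to 3197 in RAG1-/- against EBF-/-, and 1661 to 3076 and 1651 to 3360 in RAG1-/- against E2A-/- cells. In the fit with the replicate block, 42 and 45 members were called higher in RAG1-/- against EBF-/- and E2A-/- cells. Normexp background correction with quantile normalization and the crossed block were chosen after seeing the data.

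Within 10 kb of the probe, H3K4me3 regions lay near 31 members in EBF-/- and 33 in RAG1-/- cells (24.8% and 31.2% of all genes with a position), H3K9/14ac regions near 33 and 32 (31.5% and 30.3%), and H3K27me3 regions near 1 and 0 (2.02% and 3.77%); within 50 kb, H3K27me3 lay near 5 and 8 (9.18% and 15.1%). The shorter promoter window left 2 mitosis members with an E2F-type match. With 2 samples a group, the number of arrays limits the precision. A change near 0.30 on the log2 scale was often not called, and in the simulation larger changes were missed too (27 of 67 called at 1).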
